A study of Mus musculus with 16 samples.

Results

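The 9 genes described here handle iron in mammalian tissues: Hamp, Slc40a1, Cp, Trf, Tfrc, Slc11a2, Slc11a1, Fth1 and Ftl1. All 9 were found among the 20863 genes measured on arrays of whole mouse lung, each read at the probe with the highest mean over the 16 arrays. The list was picked with results of these arrays known, and Hamp was chosen by its measured log2 differences, because it moved in opposite directions after bleomycin in the 2 LNA arms. Its values are therefore a description with no test, and the other 8 genes were tested.

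The study silenced miR-199a-5p, a microRNA, with a locked nucleic acid (LNA) inhibitor in mice given bleomycin, a drug that injures the lung and leads to fibrosis. The groups were Bleomycin + LNA-miR-199a-5p (5 arrays), PBS + LNA-miR-199a-5p (3 arrays), Bleomycin + LNA-control (5 arrays) and PBS + LNA-control (3 arrays). All animals were C57BL/6 mice aged 9 to 12 weeks and received an LNA at 5 mg/kg into the trachea 4 and 2 days before, and 4 days after, bleomycin at 1 unit/kg or phosphate-buffered saline (PBS). Every group was thus instilled repeatedly, the PBS groups and LNA-control groups included, and the day on which lungs were taken is not given in the sources used here. The labels number the replicates without saying that each is a separate mouse, so p-values measure the spread between arrays, which may be technical.

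Hepcidin, the peptide encoded by Hamp, is the hormone that lowers iron release into blood: it binds ferroportin, the only known iron exporter of mammalian cells, and sends it for degradation. It is made mainly by hepatocytes, and also by heart muscle cells and by macrophages after infection. Bone morphogenetic protein 6 signals the state of iron stores to the Hamp promoter through SMAD proteins, and interleukin-6 signals inflammation to it through STAT3. In the lung, macrophages take up iron from transferrin, dead cells and haemoglobin and hold it in ferritin.

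2 kinds of sequence are shown because the inhibitor and the regulation of hepcidin turn on them. The first is the mature miR-199a-5p that the LNA was named for, from RefSeq on build GRCm38.p6, with its seed (bases 2 to 8) in capitals. It is 23 nucleotides long and is encoded at 2 places, chr1:162217844-162217866 on the plus strand (Mir199a-2) and chr9:21496537-21496559 on the minus strand (Mir199a-1).
mmu-miR-199a-5p: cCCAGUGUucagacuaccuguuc
The others are the 250 bases before the start of Hamp (chr7:30944030-30944279, minus strand) and of its neighbouring paralogue Hamp2 (chr7:30924182-30924431, minus strand), both from RefSeq on GRCm38.p6. Capitals mark GGCGCC, the core of the BMP-responsive element of hepcidin promoters, and TTCTTGGAA, their STAT site.
Hamp: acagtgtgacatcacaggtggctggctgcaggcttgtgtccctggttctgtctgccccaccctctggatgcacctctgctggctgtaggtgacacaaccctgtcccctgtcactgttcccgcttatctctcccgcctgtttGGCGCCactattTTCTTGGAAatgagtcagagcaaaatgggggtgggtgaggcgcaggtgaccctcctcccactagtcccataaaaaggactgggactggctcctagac
Hamp2: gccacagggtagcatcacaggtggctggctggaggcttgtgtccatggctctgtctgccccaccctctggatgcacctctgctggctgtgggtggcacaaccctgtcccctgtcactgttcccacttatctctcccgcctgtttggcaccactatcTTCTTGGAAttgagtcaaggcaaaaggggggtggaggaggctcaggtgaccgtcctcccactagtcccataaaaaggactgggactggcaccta
Of 247 aligned bases, 227 (91.9%) were identical in these 2 windows. In Hamp, GGCGCC lay 109 to 104 bases and TTCTTGGAA 97 to 89 bases before the start, 6 bases apart. Hamp2 kept TTCTTGGAA, 94 to 86 bases before its start, and differed from the GGCGCC of Hamp by G4A, counted from 1 at the first base of GGCGCC and written from Hamp to Hamp2. Searched on both strands, with no overlap between the motifs possible in these letters, GGCGCC was in 9.59% and TTCTTGGAA in 0.365% of 32851 RefSeq windows of 250 bases, and both were in 3 windows (0.00913%). Windows were listed for 6 of the 9 genes (9 windows), of which 2 held GGCGCC, those of Hamp and of 1 start of Tfrc, and 1 held TTCTTGGAA, that of Hamp. A match in letters is a description and says nothing about binding in these lungs.

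Values are log2 intensities as deposited, already quantile normalized, from 4.61 to 18.3, so a difference of 1 is 2-fold, and a level can be compared between groups but not between probes. Differences are given ± SE from 1 limma fit to all 16 arrays, and a gene is said to have risen or fallen where its Benjamini-Hochberg adjusted p over all 20863 genes was under 0.05. Some libraries stood apart in transcripts of other tissues. Replicates 1 and 4 of Bleomycin + LNA-control had thymocyte marker means of 8.41 and 9.18, against 6.37 to 6.68 on the other 14 arrays. Replicate 3 of PBS + LNA-miR-199a-5p had a mean of 5.82 over the 6 squamous epithelium markers, against 8.51 to 12.06 on the other 15 arrays. The 8 fat markers had their lowest means on that array (9.55) and on replicate 3 of PBS + LNA-control (9.59), and lay at 10.86 to 12.36 elsewhere. The 9 heart muscle markers, all measured, had array means of 12.12 to 12.88 in Bleomycin + LNA-miR-199a-5p, 12.25 to 12.35 in PBS + LNA-miR-199a-5p, 11.47 to 12.07 in Bleomycin + LNA-control and 11.94 to 12.22 in PBS + LNA-control. RNA integrity numbers ran from 7 to 10 and averaged 9 in Bleomycin + LNA-miR-199a-5p, 8.2 in Bleomycin + LNA-control and 8.33 in each PBS group. In whole-lung RNA, fewer cells of a type and less RNA per cell cannot be told apart. Markers of type 2 epithelium, which defines the lung, were high on all arrays, with list means of 15.79 to 16.01.

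Hamp was highest in bleomycin lungs given the inhibitor and lowest in bleomycin lungs given LNA-control. It read 9.33, 9.25, 9.31, 9.30 and 9.88 in Bleomycin + LNA-miR-199a-5p, against 8.37, 8.71 and 8.34 in PBS + LNA-miR-199a-5p. It read 7.12, 7.57, 7.83, 7.20 and 6.74 in Bleomycin + LNA-control, against 8.64, 8.66 and 8.47 in PBS + LNA-control. All 5 bleomycin lungs with the inhibitor lay above all 11 other arrays. All 5 bleomycin lungs with LNA-control lay below all 11 others, and the PBS groups overlapped. Full separation of bleomycin from PBS lungs, in either direction, was seen in 20.7% of genes with the inhibitor and 25.3% with LNA-control. Between bleomycin lungs the share was 13.8%. These shares refer to pairs of groups, and Hamp was chosen by its differences.

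The group means were 9.41 ± 0.26 in Bleomycin + LNA-miR-199a-5p (SD, n = 5), 8.48 ± 0.21 in PBS + LNA-miR-199a-5p (SD, n = 3), 7.29 ± 0.42 in Bleomycin + LNA-control (SD, n = 5) and 8.59 ± 0.10 in PBS + LNA-control (SD, n = 3). Bleomycin minus PBS was 0.94 ± 0.20 with the inhibitor (1.91-fold higher) and -1.30 ± 0.20 with LNA-control (2.46-fold lower). Between bleomycin lungs, the inhibitor minus LNA-control was 2.12 ± 0.17 (4.35-fold). In PBS lungs that difference was -0.11 ± 0.22, with a 95% interval of -0.58 to 0.35. Leaving out any single array gave 0.82 to 1.05 with the inhibitor, -1.43 to -1.16 with LNA-control and 1.98 to 2.26 between bleomycin lungs. These ranges, and the errors and interval given for Hamp, come from the arrays by which it was chosen and are no test. The mean of the Hamp probe was close to the middle of all genes, at the 49.6th percentile. The probe of Hamp2 read 5.62 to 5.99 on all 16 arrays.

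Transcripts of other cell types moved with Hamp. All 9 heart muscle markers were higher in Bleomycin + LNA-miR-199a-5p than in Bleomycin + LNA-control by the same limma fit, by 0.54 to 1.06 on the log2 scale. After bleomycin with LNA-control 5 of 9 were lower. Over all genes 13.4% were higher in the first comparison and 7.9% lower in the second. In the comparison after bleomycin with the inhibitor, where Hamp was 0.94 higher, the differences of the 9 markers were 0.08 to 0.49, all in the direction of Hamp, and none was called (limma; 2 at an unadjusted p under 0.05). With group means subtracted, r between Hamp and the heart muscle mean was 0.77 over the 16 arrays, which share RNA and normalization across both measures. With the heart muscle mean added to the fit as a covariate, a setting chosen after seeing the data, the difference of Hamp between bleomycin lungs was 1.29. Those after bleomycin were 0.72 with the inhibitor and -0.88 with LNA-control. The covariate itself differed between groups, without overlap between bleomycin lungs (12.12 to 12.88 against 11.47 to 12.07). Differences or calls lost under it, here and below, therefore cannot be assigned to heart muscle or to the treatment.

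The 8 hepatocyte markers, all measured, averaged 7.53 in Bleomycin + LNA-miR-199a-5p, 7.10 in PBS + LNA-miR-199a-5p, 7.33 in Bleomycin + LNA-control and 7.06 in PBS + LNA-control. Of these 8, 2 rose after bleomycin in each arm, and 1 was higher and 2 lower with the inhibitor in bleomycin lungs. Over all genes 7.31% rose and 6.04% fell after bleomycin with the inhibitor, and 9.6% rose and 7.9% fell with LNA-control. Between bleomycin lungs 13.4% were higher and 11.4% lower with the inhibitor, and these shares also apply to the marker counts below. Cyp2e1, a cytochrome P450, averaged 13.13 in Bleomycin + LNA-miR-199a-5p, 11.51 in PBS + LNA-miR-199a-5p, 11.85 in Bleomycin + LNA-control and 11.75 in PBS + LNA-control, and Ttr (transthyretin) read up to 9.87 in Bleomycin + LNA-miR-199a-5p and at most 5.85 in the other groups. Ahsg (fetuin A) averaged 7.47 in Bleomycin + LNA-miR-199a-5p and 8.49 in Bleomycin + LNA-control. The defining marker Alb (albumin) read 5.71 to 6.52 over all arrays, and Fgb (fibrinogen beta) 5.20 to 5.63, below the 25th percentile of genes, 5.73, on every array. The macrophage markers averaged 10.89 in Bleomycin + LNA-miR-199a-5p, 10.48 in PBS + LNA-miR-199a-5p, 11.94 in Bleomycin + LNA-control and 10.33 in PBS + LNA-control, the reverse order of Hamp in bleomycin lungs. The 7 measured alveolar macrophage markers averaged 12.95 in Bleomycin + LNA-miR-199a-5p, 12.85 in PBS + LNA-miR-199a-5p, 12.07 in Bleomycin + LNA-control and 12.75 in PBS + LNA-control. Of these 7, 2 rose after bleomycin with the inhibitor, and 1 rose and 4 fell with LNA-control. In bleomycin lungs 5 of 7 were higher with the inhibitor. Before group means were subtracted, r of Hamp over the 16 arrays was 0.91 with these markers and 0.92 with heart muscle. The 8 measured neutrophil markers averaged 11.53 in Bleomycin + LNA-miR-199a-5p, 11.79 in PBS + LNA-miR-199a-5p, 10.74 in Bleomycin + LNA-control and 11.63 in PBS + LNA-control. Of 8, 3 fell after bleomycin with the inhibitor, where Hamp was higher, and 7 fell with LNA-control, where Hamp was lower. In bleomycin lungs 6 of 8 were higher with the inhibitor, as was Hamp. The 8 fat markers averaged 12.06 in Bleomycin + LNA-miR-199a-5p, 11.25 in PBS + LNA-miR-199a-5p, 11.23 in Bleomycin + LNA-control and 10.59 in PBS + LNA-control, and 4 of 8 were higher both after bleomycin with the inhibitor and with the inhibitor in bleomycin lungs. The 6 squamous epithelium markers averaged 11.41 in Bleomycin + LNA-miR-199a-5p, 9.23 in PBS + LNA-miR-199a-5p, 10.37 in Bleomycin + LNA-control and 9.55 in PBS + LNA-control, and none was called in these 2 comparisons (limma; 4 and 1 at an unadjusted p under 0.05). With group means subtracted, r of Hamp over 16 arrays was 0.77 with type 2 epithelium, -0.67 with dividing-cell, 0.58 with erythroid and -0.53 with macrophage markers. It was 0.48 with neutrophil, 0.28 with fat, 0.28 with squamous epithelium and 0.26 with alveolar macrophage markers. With hepatocyte markers r was -0.36, with thymocyte markers -0.21 and with RNA integrity 0.53. The part of these cell types in the values of Hamp was not tested.

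**Figure D1:**
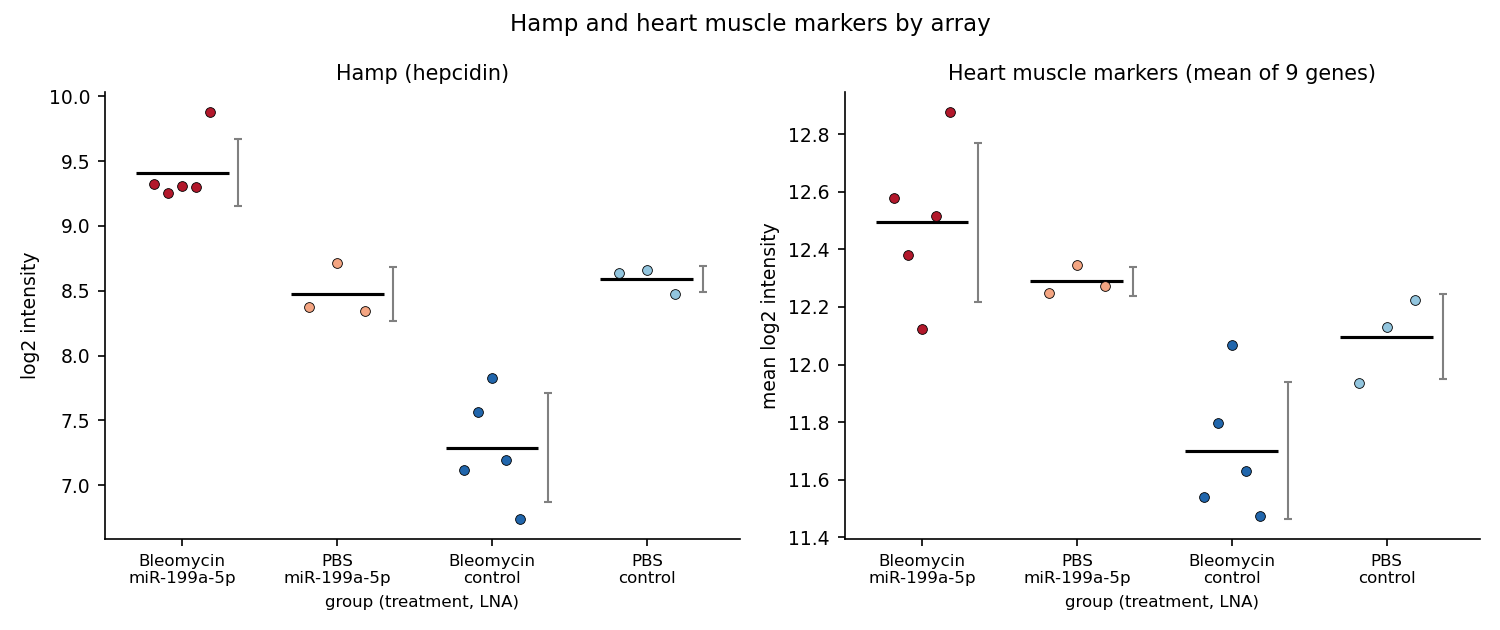
Log2 intensity of Hamp (left) and mean log2 intensity of 9 heart muscle markers (right) on each of 16 arrays, by group; points are arrays, black lines group means and grey bars ± SD. Hamp lies at 9.25 to 9.88 in Bleomycin + LNA-miR-199a-5p and at 6.74 to 7.83 in Bleomycin + LNA-control, with both PBS groups between, and the heart muscle mean is likewise lowest in Bleomycin + LNA-control.

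The genes most like Hamp over the 16 arrays, among 10423 genes brighter than the median, were Wipf2 (r = 0.951), Plvap (0.949), Kbtbd11 (0.944), Ypel3 (0.942) and Efnb1 (0.940). With group means subtracted, r was 0.634, 0.782, 0.644, 0.853 and 0.576 for these 5 genes in that order. Plvap, an endothelial diaphragm protein, averaged 14.87 in Bleomycin + LNA-miR-199a-5p, 14.43 in PBS + LNA-miR-199a-5p, 13.89 in Bleomycin + LNA-control and 14.54 in PBS + LNA-control. None of the other 8 iron genes followed Hamp closely: r with group means subtracted ran from -0.41 (Slc11a2) to 0.33 (Ftl1).

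Slc40a1, which encodes ferroportin, the exporter that hepcidin removes, passed the test in no comparison. It read 9.16, 9.03, 8.92, 8.43 and 8.98 in Bleomycin + LNA-miR-199a-5p, against 9.25, 9.28 and 8.79 in PBS + LNA-miR-199a-5p. It read 9.39, 9.13, 8.84, 9.18 and 9.40 in Bleomycin + LNA-control, against 9.30, 8.96 and 8.98 in PBS + LNA-control. The groups overlapped in all 4 pairs. The largest of the 4 differences was between bleomycin lungs, -0.28 ± 0.14 with the inhibitor (95% interval -0.59 to 0.02, adjusted p = 0.163), and the interval after bleomycin with LNA-control was -0.24 to 0.46. Hepcidin acts on the ferroportin protein, which these arrays do not measure.

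Cp, ceruloplasmin, the copper oxidase that lets exported iron load onto transferrin, also passed in no comparison. It read 12.90, 12.98, 13.16, 13.37 and 13.26 in Bleomycin + LNA-miR-199a-5p, against 12.72, 12.72 and 12.99 in PBS + LNA-miR-199a-5p, with 2 bleomycin arrays below the highest PBS array. Its difference there was 0.32 ± 0.11 (adjusted p = 0.0606), and it passed under 5 of the 24 other settings tried. After bleomycin with LNA-control the difference was 0.14 ± 0.11 (adjusted p = 0.449). A second Cp probe, with a mean of 8.41 against 12.99 for the first, differed by 0.00 after bleomycin with the inhibitor.

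Trf, transferrin, the iron carrier of blood and airway fluid, was higher with the inhibitor in bleomycin lungs. It read 15.58, 15.68, 15.60, 15.77 and 15.80 in Bleomycin + LNA-miR-199a-5p, against 15.58, 15.22, 15.45, 15.42 and 15.49 in Bleomycin + LNA-control. The 2 groups did not overlap, as for 13.8% of all genes, though their nearest arrays both round to 15.58. The difference was 0.25 ± 0.08 (1.19-fold, adjusted p = 0.0333), and it lost the call under 10 of the 24 other settings, among them without 1 of 5 single arrays, with the replicate block (adjusted p = 0.0612) and with RNA integrity as a covariate (0.18, adjusted p = 0.178). RNA integrity averaged 9 in Bleomycin + LNA-miR-199a-5p and 8.2 in Bleomycin + LNA-control. After bleomycin with the inhibitor, Trf differed by 0.22 ± 0.10 (adjusted p = 0.135), and by 0.58 at its second probe.

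Tfrc, the transferrin receptor that brings transferrin-bound iron into cells, passed in no comparison. It read 9.69, 9.88, 9.88, 9.71 and 9.21 in Bleomycin + LNA-miR-199a-5p, against 9.85, 9.88 and 9.88 in PBS + LNA-miR-199a-5p. Replicate 5 of Bleomycin + LNA-miR-199a-5p was the lowest of all 16 arrays. It read 9.89, 9.69, 9.84, 9.65 and 9.72 in Bleomycin + LNA-control, against 10.01, 9.81 and 9.85 in PBS + LNA-control. The intervals of the 4 differences together spanned -0.45 to 0.27, with adjusted p from 0.293 to 0.990. Of 12 probes named Tfrc, 10 had means of 9.37 to 9.78, and the other 2 were dimmer, at 7.90 and 5.87.

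Slc11a2, the divalent metal transporter DMT1 that carries iron out of endosomes, passed the test in no comparison. It read 9.34, 9.33 and 9.34 in PBS + LNA-control, a spread far smaller than in the other groups, where it read 9.36 to 9.79. The groups did not overlap for bleomycin minus PBS with LNA-control, where the difference was 0.28 ± 0.09 (adjusted p = 0.0543), and it passed under 5 of the 24 other settings. Nor did they overlap between PBS lungs, where the inhibitor minus LNA-control was 0.28 ± 0.11 (adjusted p = 0.569). Non-overlapping arrays were found for 25.3% of all genes in the first of these comparisons and 18.1% in the second. After bleomycin with the inhibitor the difference was 0.02 ± 0.09 (adjusted p = 0.920). A second Slc11a2 probe had a mean of 6.25, against 9.57 for the first. It differed by 0.03 between PBS lungs, and after bleomycin by 0.24 with LNA-control and 0.15 with the inhibitor.

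Slc11a1, which encodes NRAMP1, the metal pump of the phagosome membrane of macrophages, rose after bleomycin in both arms and was lower with the inhibitor in bleomycin lungs. It read 9.74, 9.69, 9.88, 9.82 and 10.24 in Bleomycin + LNA-miR-199a-5p, against 9.35, 9.41 and 9.48 in PBS + LNA-miR-199a-5p. It read 10.36, 10.35, 10.17, 10.08 and 10.41 in Bleomycin + LNA-control, against 9.53, 9.43 and 9.35 in PBS + LNA-control. Bleomycin and PBS arrays did not overlap in either arm, as for 20.7% of all genes with the inhibitor and 25.3% with LNA-control, while replicate 5 of Bleomycin + LNA-miR-199a-5p, at 10.24, lay among the arrays of Bleomycin + LNA-control.

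The rise of Slc11a1 after bleomycin was 0.46 ± 0.11 with the inhibitor (1.37-fold, adjusted p = 0.0162) and 0.84 ± 0.11 with LNA-control (1.78-fold, adjusted p = 7.71e-05). In bleomycin lungs it was -0.40 ± 0.10 with the inhibitor relative to LNA-control (1.32-fold lower, adjusted p = 0.00688). The difference between the 2 bleomycin effects was -0.38 ± 0.16 (adjusted p = 0.162). The call with the inhibitor was lost without PBS + LNA-miR-199a-5p replicate 1 (adjusted p = 0.0601) and under 2 further settings, and the difference between effects passed without Bleomycin + LNA-miR-199a-5p replicate 5 (-0.47, adjusted p = 0.0361). With the heart muscle mean as a covariate, the difference between bleomycin lungs was -0.47, against -0.40 without it, and was not called (adjusted p = 0.282).

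Of the 14 macrophage markers, 7 rose after bleomycin with the inhibitor and 12 with LNA-control, and 12 were lower and 1 was higher with the inhibitor in bleomycin lungs. With group means subtracted, r of Slc11a1 with the macrophage mean was 0.52 over 16 arrays, and the part of macrophage transcripts in its values was not tested. The genes most like Slc11a1 were Hexa (r = 0.979), Apoe (0.975), Tbxas1 (0.966), Itgb2 (0.966) and Sh3pxd2b (0.965), with 0.721 to 0.866 after group means were subtracted. Hexa encodes a lysosomal hexosaminidase chain and Itgb2 the beta chain of leukocyte integrins. For the other 7 genes the highest r over 16 arrays ran from 0.864, for Slc11a2 with Mcoln3, to 0.922, for Cp with Rrp9.

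Fth1, the heavy chain of ferritin, which oxidises iron for storage, rose after bleomycin with LNA-control. It read 17.51, 17.42, 17.42, 17.32 and 17.48 in Bleomycin + LNA-control, against 17.26, 17.14 and 17.14 in PBS + LNA-control, with no overlap. The rise was 0.25 ± 0.06 (1.19-fold, adjusted p = 0.0103), and it was not called without PBS + LNA-control replicate 2 (0.23, adjusted p = 0.0560) or replicate 3 (0.23, adjusted p = 0.0590), or with the heart muscle covariate (0.22, adjusted p = 0.0758). With the inhibitor it read 17.37, 17.33, 17.37, 17.43 and 17.35 in bleomycin lungs, against 17.28, 17.32 and 17.24 in PBS lungs, again with no overlap. The difference there was 0.09 ± 0.06 (adjusted p = 0.379). Such non-overlap was found for 25.3% of all genes with LNA-control and 20.7% with the inhibitor. The difference between the 2 effects was -0.16 ± 0.09 (adjusted p = 0.288). With group means subtracted, r between Fth1 and Slc11a1 was 0.38.

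Ftl1, the light chain of ferritin, which helps form the mineral core, passed in no comparison. It read 17.12, 16.97, 17.10, 17.26 and 17.39 in Bleomycin + LNA-miR-199a-5p, against 17.13, 17.02 and 17.39 in PBS + LNA-miR-199a-5p. It read 17.29, 17.33, 17.39, 17.37 and 17.27 in Bleomycin + LNA-control, against 17.17, 17.22 and 17.16 in PBS + LNA-control. The LNA-control groups did not overlap, as for 25.3% of all genes, with a difference of 0.15 ± 0.09 (adjusted p = 0.342). Both ferritin probes were among the brightest on the array, Fth1 at the 99.9th and Ftl1 at the 99.8th percentile of genes.

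**Figure D2:**
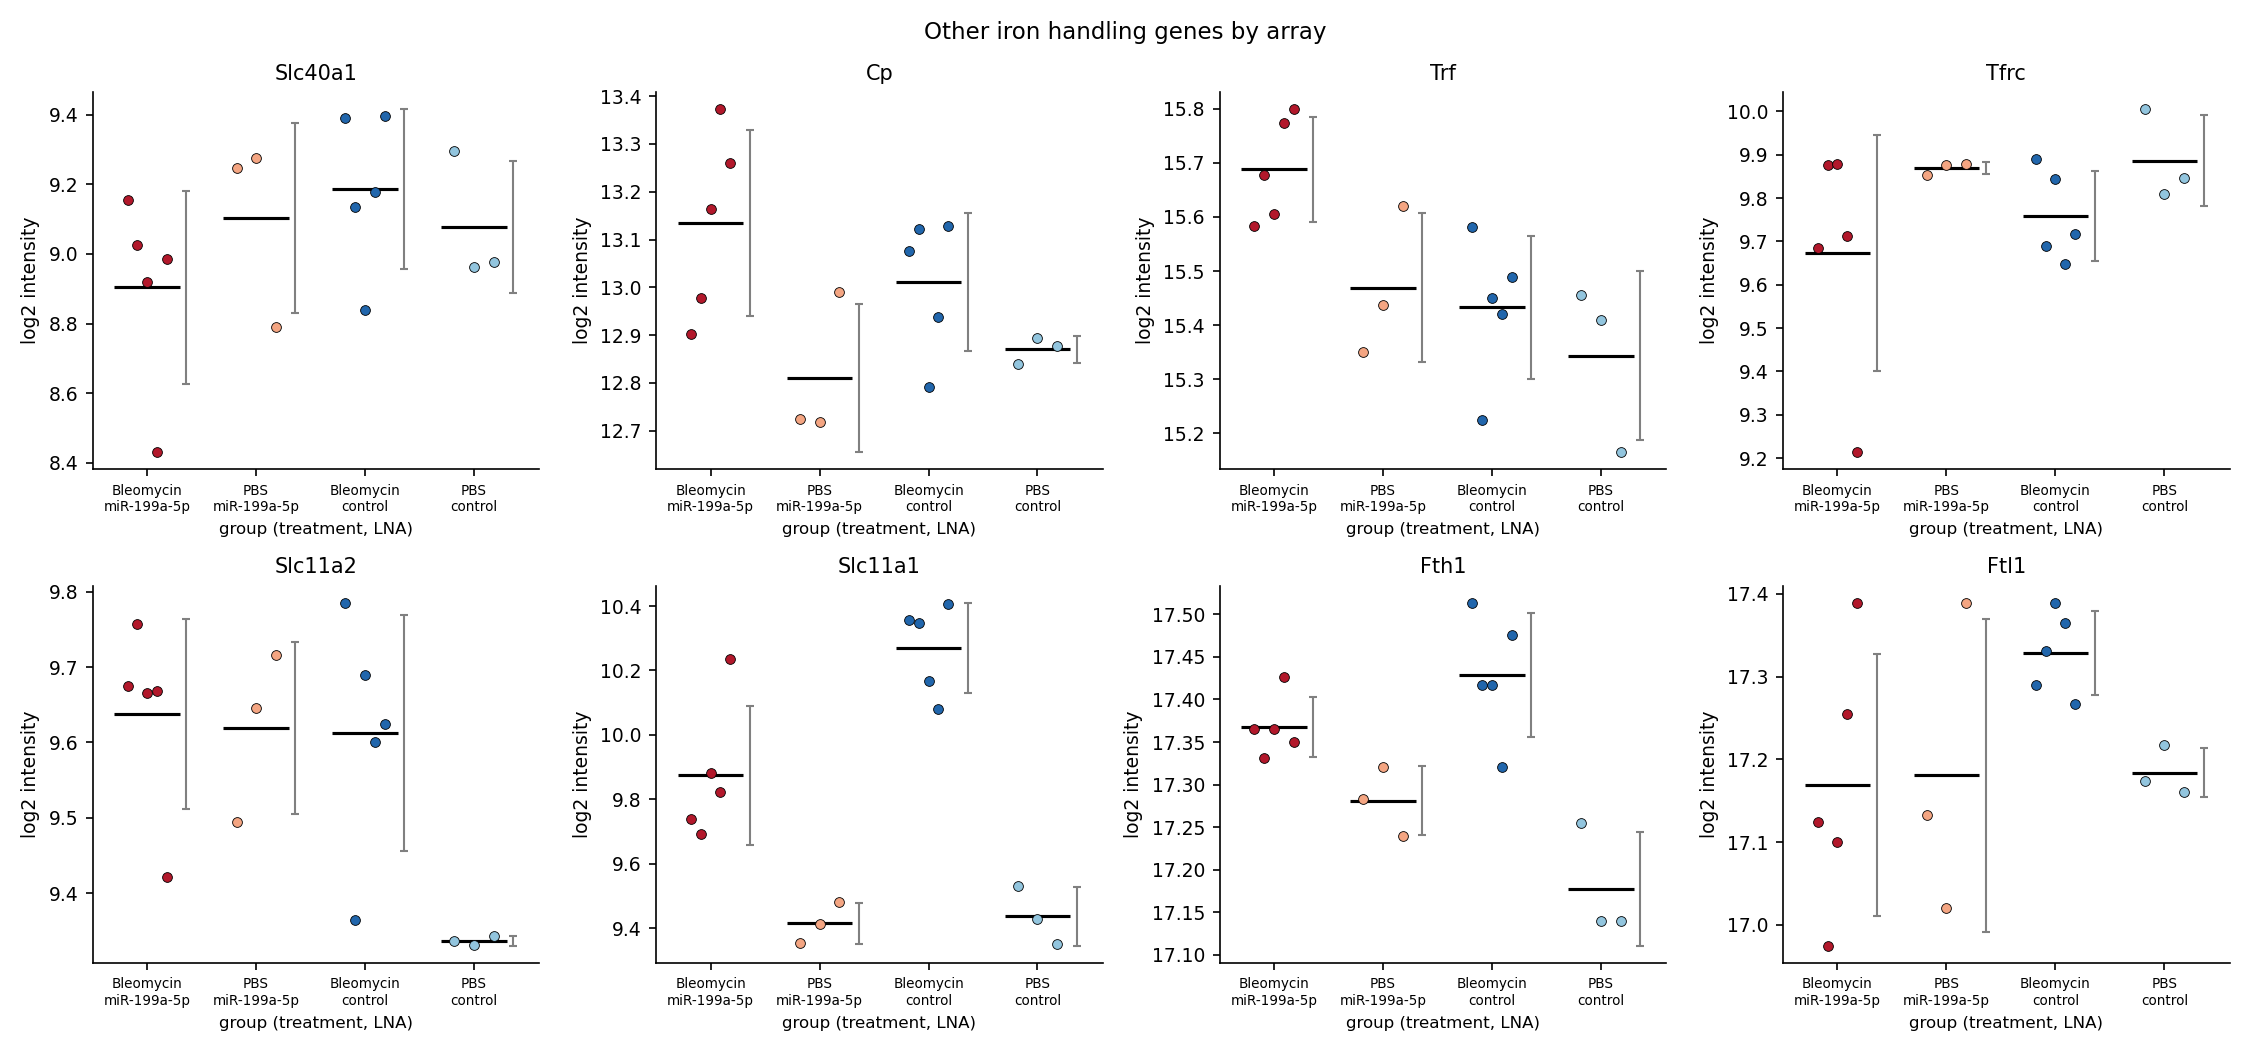
Log2 intensity of the 8 tested iron genes on each of 16 arrays, by group, each panel with its own vertical scale; points are arrays, black lines group means and grey bars ± SD. Slc11a1 is highest in Bleomycin + LNA-control (10.08 to 10.41) and intermediate in Bleomycin + LNA-miR-199a-5p (9.69 to 10.24), and Slc11a2 is lowest and tightest in PBS + LNA-control.

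Counted over the 8 tested genes, 1 rose after bleomycin with the inhibitor, where 13.4% of all genes were called (7.31% higher and 6.04% lower), and 2 rose with LNA-control, where 17.5% were (9.6% higher and 7.9% lower). Between bleomycin lungs 1 was higher and 1 lower with the inhibitor, where 24.9% of all genes were called (13.4% higher and 11.4% lower) and 13.8% did not overlap. With 8 genes, counts of 1 or 2 are near these backgrounds and are not a result about the list. In PBS lungs none was called by limma (1 at an unadjusted p under 0.05), where 0.0479% of all genes were called (0.0336% higher and 0.0144% lower), and none in the difference between the 2 effects (1 at an unadjusted p under 0.05), where 7.01% were (3.07% higher and 3.94% lower). The median difference of the 8 genes was 0.05 after bleomycin with the inhibitor and 0.14 with LNA-control, against 0.01 and 0.00 over all genes in the same comparisons.

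**Figure D3:**
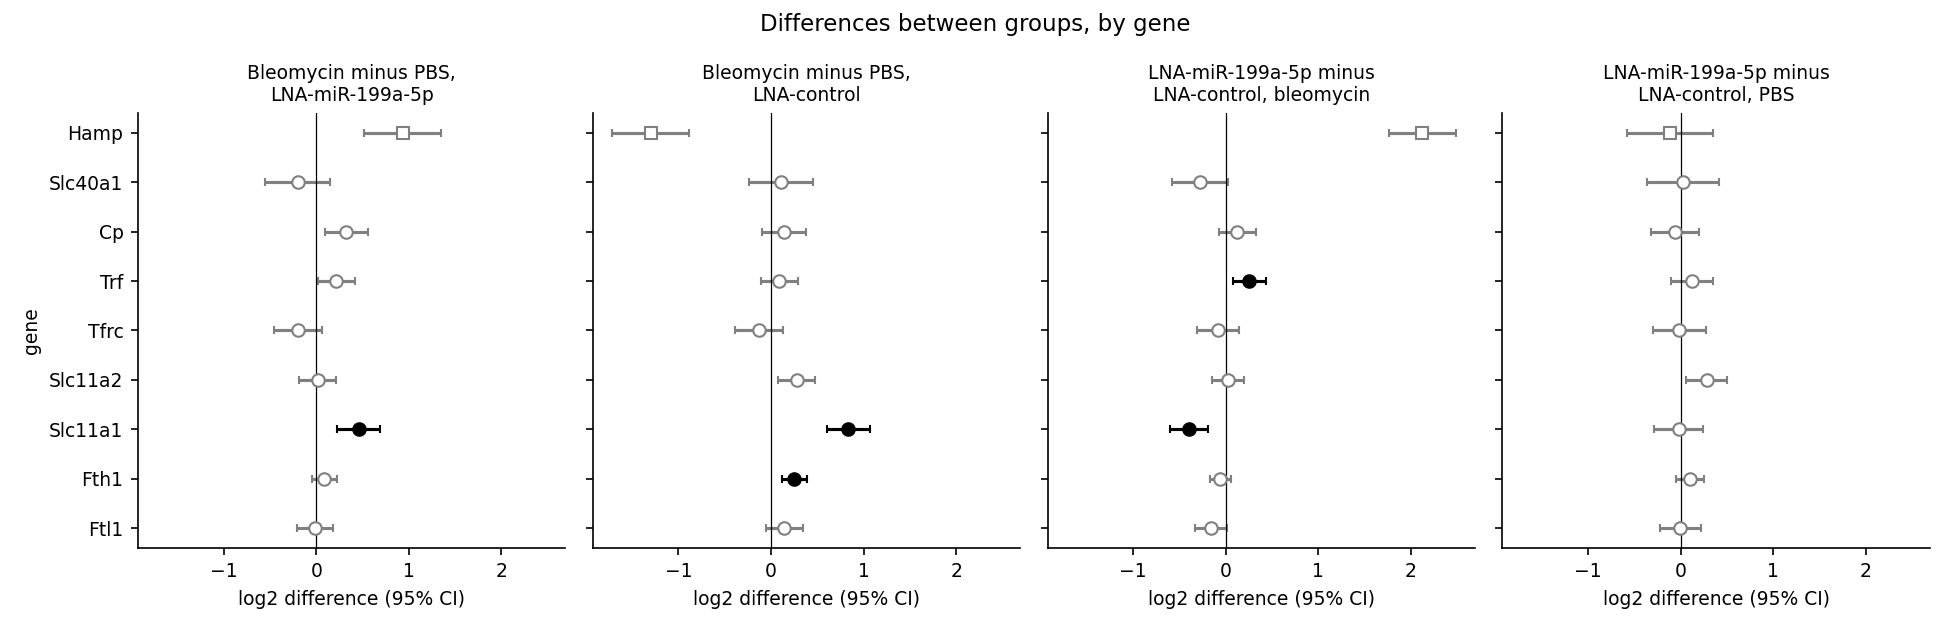
Log2 differences (horizontal axis) of the 9 iron genes (rows) in 4 comparisons (panels), with 95% intervals from limma; filled circles passed an adjusted p of 0.05, open circles did not, and the open squares of Hamp were not tested. Hamp lies at 0.94 and -1.30 after bleomycin in the 2 arms and at 2.12 between bleomycin lungs, while the other 8 genes lie between -0.40 and 0.84. Hamp was chosen by these differences, so its intervals describe the spread of the arrays and are no test.

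Around these genes, 69 measured genes of 72 listed for hepcidin control, iron uptake, export, sensing, haem and mitochondria were read in the same fit. The lists were chosen with earlier results of these data known, so counts in them, here and below, are a description. After bleomycin with the inhibitor 7 rose and 5 fell (13.4% of all genes called), and with LNA-control 12 rose and 8 fell (17.5%). Between bleomycin lungs 13 were higher and 9 lower with the inhibitor (24.9%). None was called in PBS lungs by limma (6 at an unadjusted p under 0.05), and 6 differed between the 2 bleomycin effects, 2 upward and 4 downward (7.01%). Their median difference was 0.06 after bleomycin with the inhibitor (0.01 over all genes), 0.06 with LNA-control (0.00 over all genes) and 0.01 between bleomycin lungs (0.01 over all genes). After bleomycin with the inhibitor the 12 calls became 3 to 7 without replicate 4 or 5 of Bleomycin + LNA-miR-199a-5p or any replicate of PBS + LNA-miR-199a-5p, and the 6 calls between effects became 3 without replicate 2 of PBS + LNA-miR-199a-5p or replicate 2 or 3 of PBS + LNA-control. Between bleomycin lungs 12 were called without the 2 arrays rich in thymocyte transcripts, and 14 with RNA integrity as a covariate. With the heart muscle mean as a covariate none of the 69 was called between bleomycin lungs, where only 177 of all genes were (5188 without it). That mean did not overlap between the bleomycin groups, so the lost calls cannot be assigned to heart muscle or to the inhibitor.

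**Figure D4:**
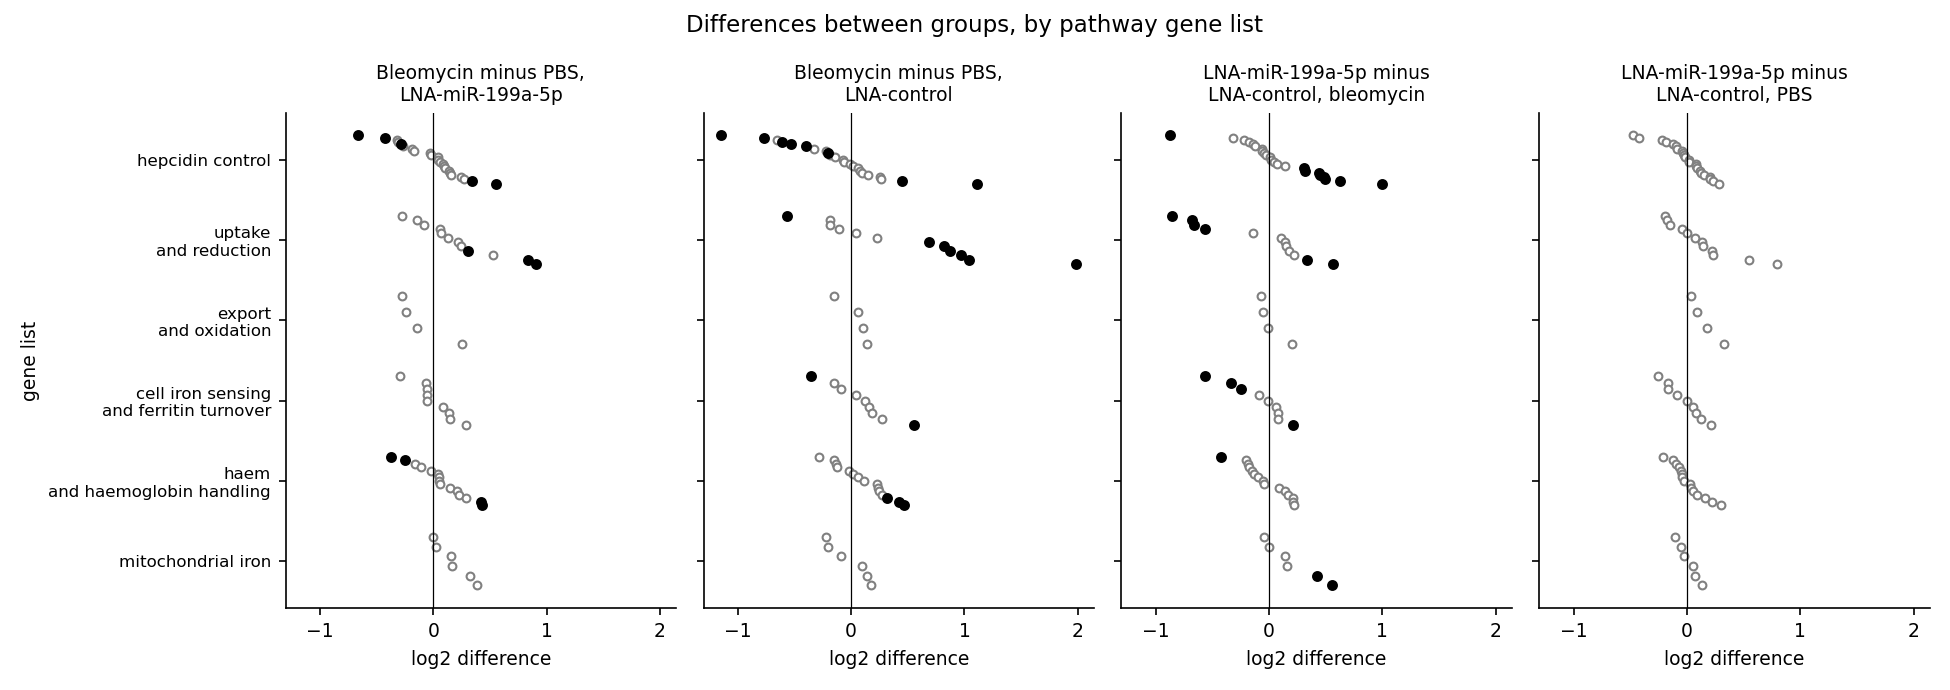
Log2 differences (horizontal axis) of 69 pathway genes, 1 point each, in 6 lists (rows) and 4 comparisons (panels); filled points passed an adjusted p of 0.05. Of the 6 lists, uptake and reduction has the highest median after bleomycin with LNA-control, 0.46. There 6 of 12 rose (9.6% of all genes), and no point is filled in PBS lungs. The lists were chosen with earlier results of these data known.

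Among 23 genes of hepcidin control, 2 rose and 3 fell after bleomycin with the inhibitor, 2 rose and 6 fell with LNA-control, and 8 were higher and 1 lower with the inhibitor in bleomycin lungs. Over all genes the shares higher and lower were 7.31% and 6.04%, 9.6% and 7.9%, and 13.4% and 11.4% in these comparisons. Bmp6, the ligand that signals iron stores to hepcidin, followed the order of Hamp in bleomycin lungs. It read 11.44, 11.42, 11.62, 11.55 and 11.76 in Bleomycin + LNA-miR-199a-5p, against 11.20, 11.46 and 11.19 in PBS + LNA-miR-199a-5p. It read 10.39, 10.91, 10.97, 10.18 and 10.33 in Bleomycin + LNA-control, against 11.68, 11.68 and 11.75 in PBS + LNA-control.

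All 5 arrays of Bleomycin + LNA-control lay below the 11 others for Bmp6. Full separation, in either direction, was seen in 25.3% of genes between bleomycin and PBS lungs with LNA-control. Between bleomycin lungs the share was 13.8%. Bmp6 fell by 1.15 ± 0.16 after bleomycin with LNA-control (2.21-fold lower, adjusted p = 9.62e-05). It was 1.00 ± 0.14 higher with the inhibitor in bleomycin lungs (adjusted p = 0.000102). Its 2 bleomycin effects differed by 1.42 ± 0.22 (adjusted p = 0.00163). After bleomycin with the inhibitor its difference was 0.27 ± 0.16 (adjusted p = 0.252). With the heart muscle mean as a covariate the difference between bleomycin lungs was 0.48 (adjusted p = 0.352). With group means subtracted, r of Bmp6 was -0.80 with the mean of the dividing-cell markers and 0.61 with that of heart muscle, and the part of either in its values was not tested.

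Smad6, an inhibitor that BMP signalling induces, averaged 11.74 in Bleomycin + LNA-miR-199a-5p, 12.05 in PBS + LNA-miR-199a-5p, 11.30 in Bleomycin + LNA-control and 12.07 in PBS + LNA-control. It fell by 0.77 ± 0.14 after bleomycin with LNA-control (adjusted p = 0.000934) and was 0.44 ± 0.12 higher with the inhibitor in bleomycin lungs (adjusted p = 0.0134), a call lost with RNA integrity as a covariate (0.40, adjusted p = 0.0634). The latter call was also lost without the 2 arrays rich in thymocyte transcripts (0.41, adjusted p = 0.0849) and with the heart muscle covariate (0.02, adjusted p = 0.980). Il6ra, the receptor of interleukin-6, fell by 0.53 ± 0.11 after bleomycin with LNA-control (adjusted p = 0.00323), a call lost with the heart muscle covariate (-0.31, adjusted p = 0.0641). It was 0.49 ± 0.10 higher with the inhibitor in bleomycin lungs (adjusted p = 0.00189). Bmpr1a, a BMP receptor, fell by 0.28 ± 0.07 with the inhibitor (adjusted p = 0.0166), a call lost without PBS + LNA-miR-199a-5p replicate 1 (adjusted p = 0.0565) or 3 (adjusted p = 0.0577). That call was also lost with the replicate block (-0.23, adjusted p = 0.0839) and with only the 2 groups compared (adjusted p = 0.0722). With LNA-control Bmpr1a fell by 0.21 ± 0.07 (adjusted p = 0.0469), a call lost under 19 of 24 other settings. Smad7, another inhibitor of the pathway, fell by 0.66 ± 0.20 after bleomycin with the inhibitor (adjusted p = 0.0402), a call lost under 14 of 24 other settings.

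Il6 itself, a dim probe named here after its values were seen, was on average highest where Hamp was lowest. It read 6.05, 6.63, 6.88, 5.99 and 6.45 in Bleomycin + LNA-miR-199a-5p, against 6.06, 6.35 and 6.52 in PBS + LNA-miR-199a-5p. It read 7.44, 6.95, 6.85, 7.55 and 7.56 in Bleomycin + LNA-control, against 6.12, 6.17 and 6.20 in PBS + LNA-control. Bleomycin minus PBS was 1.11 ± 0.20 with LNA-control (2.15-fold), and the inhibitor minus LNA-control was -0.87 ± 0.18 in bleomycin lungs. The 2 bleomycin effects differed by -1.02 ± 0.29. As Il6 was picked by its values, these differences are a description with no test.

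**Figure D5:**
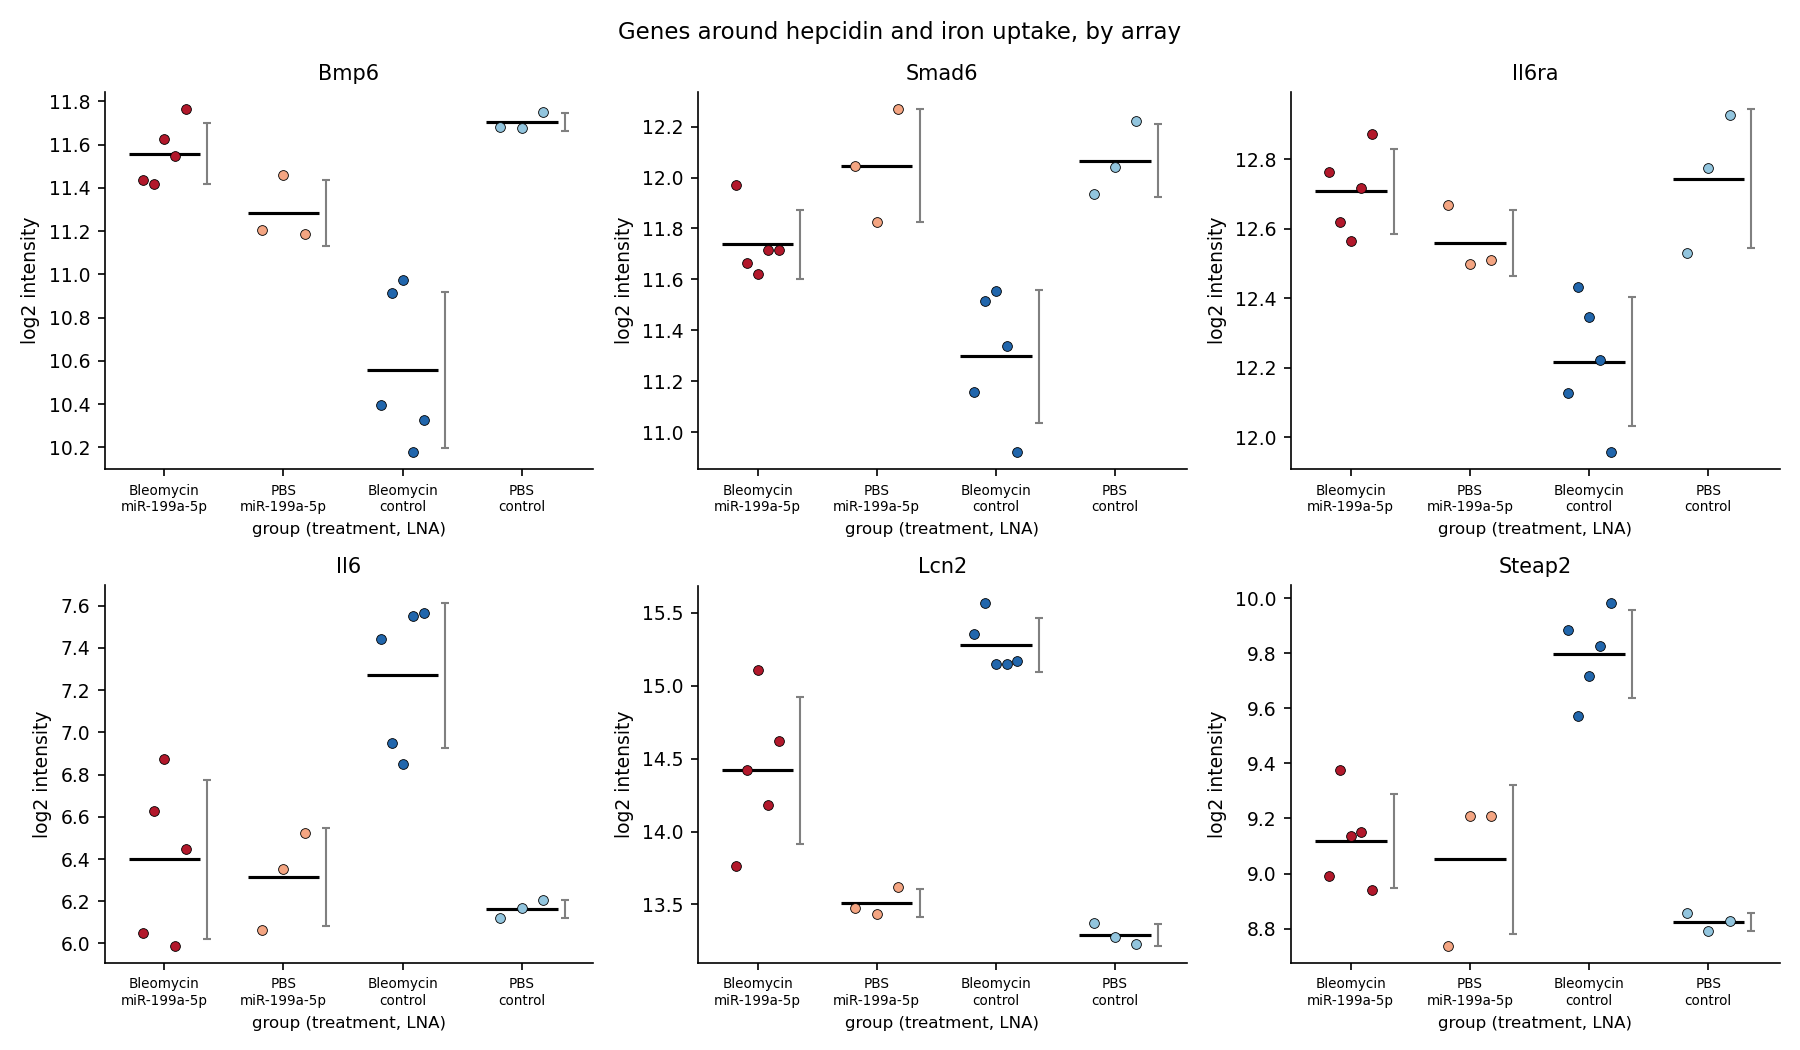
Log2 intensity of Bmp6, Smad6, Il6ra, Il6, Lcn2 and Steap2 on each of 16 arrays, by group, each panel with its own vertical scale; points are arrays, black lines group means and grey bars ± SD. Bmp6 is lowest in Bleomycin + LNA-control (10.18 to 10.97), where Il6, Lcn2 and Steap2 are highest on average.

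Among 12 genes of uptake and reduction, 3 rose and none fell after bleomycin with the inhibitor, 6 rose and 1 fell with LNA-control, and 2 were higher and 4 lower with the inhibitor in bleomycin lungs. Over all genes 7.31% rose and 6.04% fell with the inhibitor, 9.6% rose and 7.9% fell with LNA-control, and 13.4% were higher and 11.4% lower between bleomycin lungs. Lcn2, which binds iron-carrying siderophores, read 13.76, 14.42, 15.11, 14.18 and 14.62 in Bleomycin + LNA-miR-199a-5p, against 13.48, 13.44 and 13.62 in PBS + LNA-miR-199a-5p. It read 15.36, 15.57, 15.15, 15.15 and 15.17 in Bleomycin + LNA-control, against 13.37, 13.27 and 13.23 in PBS + LNA-control. Its rise was 0.91 ± 0.20 with the inhibitor (adjusted p = 0.0126) and 1.99 ± 0.20 with LNA-control (3.96-fold, adjusted p = 6.77e-06).

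Every bleomycin array was above every PBS array of its arm for Lcn2, where 20.7% of all genes did not overlap with the inhibitor and 25.3% with LNA-control. The effects differed by -1.08 ± 0.29 (adjusted p = 0.0342), a call lost under 13 of 23 other settings. Steap2, a metalloreductase that reduces iron for uptake, rose by 0.97 ± 0.12 with LNA-control (1.96-fold, adjusted p = 4.56e-05), differed by 0.07 ± 0.12 with the inhibitor (adjusted p = 0.756), and its effects differed by -0.91 ± 0.17 (adjusted p = 0.00593). Cybrd1, a ferric reductase, fell by 0.57 ± 0.11 with LNA-control (adjusted p = 0.00227) and was 0.56 ± 0.10 higher with the inhibitor in bleomycin lungs (adjusted p = 0.000881). Slc39a14, a transporter of iron that is not bound to transferrin, rose by 0.87 ± 0.19 with LNA-control (1.83-fold, adjusted p = 0.0035), a call lost with the heart muscle covariate (0.62, adjusted p = 0.0694).

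The 4 genes of export and oxidation passed in no comparison by limma, with 2 of 4 at an unadjusted p under 0.05 after bleomycin with the inhibitor, 0 with LNA-control, 1 between bleomycin lungs and 1 between PBS lungs. Of 9 genes of iron sensing and ferritin turnover, none was called after bleomycin with the inhibitor (2 at an unadjusted p under 0.05), 1 rose and 1 fell with LNA-control, and 1 was higher and 3 lower with the inhibitor in bleomycin lungs, while 13.4%, 17.5% and 24.9% of all genes were called in these 3 comparisons in turn. Epas1, the hypoxia factor HIF-2 alpha, fell by 0.35 ± 0.07 with LNA-control (adjusted p = 0.0031). Hif1a rose by 0.55 ± 0.17 with LNA-control (adjusted p = 0.0321), a call lost without Bleomycin + LNA-control replicate 1 (0.47, adjusted p = 0.0786) or 5 and without any single replicate of PBS + LNA-control (adjusted p of 0.0806 or above). The same call was lost with the heart muscle covariate (0.27, adjusted p = 0.360) and without the 2 arrays rich in thymocyte transcripts (0.47, adjusted p = 0.130). Ncoa4, the receptor that delivers ferritin to lysosomes, averaged 12.17 in Bleomycin + LNA-miR-199a-5p and 12.50 in Bleomycin + LNA-control (difference -0.33 ± 0.08, adjusted p = 0.00766), and it was not called without the 2 arrays rich in thymocyte transcripts (-0.30, adjusted p = 0.0669). Nor was Ncoa4 called with RNA integrity (-0.25, adjusted p = 0.0538) or the heart muscle mean (-0.05, adjusted p = 0.909) as a covariate.

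Of 15 measured genes of haem and haemoglobin handling, 2 rose and 2 fell after bleomycin with the inhibitor, 3 rose with LNA-control, and 1 was lower with the inhibitor in bleomycin lungs, while 13.4%, 17.5% and 24.9% of all genes were called in these 3 comparisons in turn. Hmox1, the inducible haem oxygenase that frees iron from haem, rose by 0.47 ± 0.15 with LNA-control (adjusted p = 0.0373), a call lost under 10 of 24 other settings. Hmox2, the constitutive form, rose by 0.43 ± 0.08 with the inhibitor (adjusted p = 0.00659) and by 0.32 ± 0.08 with LNA-control (adjusted p = 0.00942), the second call lost without PBS + LNA-control replicate 1 (0.28, adjusted p = 0.0574). That second call was also lost without the 2 arrays rich in thymocyte transcripts (0.30, adjusted p = 0.0504). The first was lost with only the 2 groups compared (adjusted p = 0.0505). Slc46a1, a haem and folate carrier, rose by 0.43 ± 0.10 with the inhibitor (adjusted p = 0.0142), a call lost with the replicate block (0.39, adjusted p = 0.0789) and with only the 2 groups compared (adjusted p = 0.0567). Of 6 measured mitochondrial genes, 2 were higher with the inhibitor in bleomycin lungs, where 13.4% of all genes were higher: Slc25a37, mitoferrin 1, by 0.55 ± 0.12 (adjusted p = 0.00316) and Slc25a28, mitoferrin 2, by 0.42 ± 0.12 (adjusted p = 0.0201). The call of Slc25a28 was lost under 7 of 24 other settings, among them without replicate 4 or 5 of either bleomycin group (0.33 to 0.40). It was also lost with RNA integrity as a covariate (0.33, adjusted p = 0.110) and without the 2 arrays rich in thymocyte transcripts (0.36, adjusted p = 0.136). Mitoferrin 1 is best known from developing red cells, and of 7 measured erythroid markers 2 were higher in the same comparison, with list means of 10.04 in Bleomycin + LNA-miR-199a-5p and 9.81 in Bleomycin + LNA-control. Their part in the result was not tested.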

How the data were processed

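Total RNA from whole lung, 0.2 ug per array, was labelled with Cy3 and read on 16 one-colour Agilent arrays, per the labels. The deposited values are log2 intensities, for which the submitters' processing notes name limma; background correction is not given in the sources used here. Sorted values of the arrays lay within 0.0974 of each other, so they were already quantile normalized. Of 62976 rows, 31465 had 1 gene symbol in the platform table and 31511 none; 29036 matched a RefSeq accession, which changed 2933 symbols. The brightest probe was kept for the 6086 genes with several, leaving 20863 genes with no further filter. Replicates of a group correlated at 0.989 or above with a median absolute difference of at least 0.106, so none repeated another, and precision is limited by the number of arrays.

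limma 3.58.1 in R 4.3.3 fitted 4 group means to all 16 arrays (lmFit, eBayes) with 5 two-sided contrasts, after a check on simulated data. The members and gene lists were chosen with earlier results of these data known. Il6 was named outside the rule that follows, after its values were seen. Named genes are the 9 members; from each pathway list the called genes with the smallest p among those above the median level, at most 4 in the LNA-control arm and 2 in any other pair of groups; and the 5 genes most correlated with a member, given for Hamp and Slc11a1, with the extremes of the rest. Alternatives were the mean of all probes, a filter on dim genes, the replicate number as a block, RNA integrity as a covariate, array weights, only the groups compared, and arrays left out; the heart muscle covariate and a block within PBS arrays were added after seeing the data. Replicate numbers, which come from the titles, paired the PBS arrays of the 2 LNA arms: same-numbered arrays deviated together with r of 0.108 to 0.497 in 3 of 3 pairs, and no other pair of groups met this.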

Additional observations from a re-analysis of the deposited data

Results flagged for a closer look

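Hamp on replicate 5 of Bleomycin + LNA-miR-199a-5p read 9.88 on the log2 scale, far above the other 4 arrays of its group at 9.25 to 9.33. The same array was the lowest of its group for Tfrc, at 9.21, and for Slc11a2, at 9.42. It had the highest RNA integrity number of the study, 10, and the highest heart muscle mean, 12.88. The gap to the nearest array exceeded Dixon's 95% limit for 5 arrays (0.71) in these 3 of 18 groups checked, where chance flags about 1 in 20 groups. Their part in the values was not tested.

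Hamp moved in opposite directions after bleomycin in the 2 arms: all 5 arrays of Bleomycin + LNA-miR-199a-5p lay above the mean of PBS + LNA-miR-199a-5p, and all 5 arrays of Bleomycin + LNA-control lay below the mean of PBS + LNA-control. The 2 effects differed by 2.23 ± 0.28 on the log2 scale, a difference that was not tested because Hamp was chosen for it.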

How the results depend on the processing

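Hamp kept its direction in every alternative run, with a difference between bleomycin lungs of 1.29 to 2.26, after bleomycin of 0.72 to 1.05 with the inhibitor and -1.47 to -0.88 with LNA-control, and between the 2 effects of 1.60 to 2.37. The smallest of each came with the heart muscle covariate, and in PBS lungs the difference was -0.32 to -0.05. These runs reuse the arrays by which Hamp was chosen, so they describe the fit and are no test of its direction.

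After bleomycin with the inhibitor, the 1 called member became 2 with the mean of all probes, the dim filter or array weights, 0 with RNA integrity or only the 2 groups, and 0 to 2 without single arrays. The 12 pathway genes became 4 with the replicate block, 6 with RNA integrity, 0 with only the 2 groups and 3 to 14 without single arrays. With LNA-control, members were 1 with the heart muscle covariate and 1 to 3 without single arrays (1 without PBS + LNA-control replicate 2 or 3), and pathway genes 39 with array weights and 15 to 20 without single arrays. Between bleomycin lungs, members were 1 with the replicate block, RNA integrity, array weights or without the 2 arrays rich in thymus transcripts, 0 with heart muscle and 1 to 2 without single arrays. Pathway genes there were 14 with RNA integrity, 12 without the thymus-rich arrays, 0 with heart muscle and 16 to 25 without single arrays. In PBS lungs 2 pathway genes were called with array weights, and 0 members and 0 pathway genes without any single array and with the replicate block, within the PBS arrays too. Between effects, pathway genes were 3 with the replicate block, 15 with array weights, 0 with heart muscle and 3 to 8 without single arrays, and members 1 with array weights and 0 to 1 without single arrays. The cause of these moves was not tested.

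No reversed sign was called; the largest was that of Tfrc between bleomycin lungs with the heart muscle covariate. Ftl1 after bleomycin with the inhibitor was 0.0077 with array weights. With the mean of all probes, Slc11a2 was -0.018 between bleomycin lungs, Cp 0.025 and Trf -0.023 in PBS lungs, and Tfrc 0.0070 between effects; Tfrc was 0.014 in PBS lungs with array weights. With heart muscle, Slc40a1 was -0.051 after bleomycin with LNA-control and 0.038 between bleomycin lungs, and Tfrc was 0.30 between bleomycin lungs (-0.08 without it, adjusted p 0.497 with it), 0.076 in PBS lungs and 0.22 between effects. Without single arrays, signs also turned within these ranges: after bleomycin with the inhibitor Slc11a2 -0.044 to 0.073, Ftl1 -0.092 to 0.092; between bleomycin lungs Slc11a2 -0.037 to 0.079, Tfrc -0.14 to 0.030; in PBS lungs Slc40a1 -0.060 to 0.18, Slc11a1 -0.064 to 0.026, Ftl1 -0.11 to 0.077, Tfrc -0.056 to 0.043; between effects Tfrc -0.13 to 0.047.

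Outside the PBS arrays, same-numbered arrays gave r from -0.373 to 0.324, and no pair of groups reached 0.108 in every one of its pairs. Between the 2 groups given the inhibitor, r was 0.116, 0.324 and 0.043 for replicates 1, 2 and 3. The replicate block ended the calls of Trf (adjusted p = 0.0612) and Hmox1 (0.0558) between bleomycin lungs. It also ended those of Bmpr1a (0.0839), Smad7 (0.0990) and Slc46a1 (0.0789) after bleomycin with the inhibitor. With LNA-control it ended those of Bmpr1a (0.193) and Hmox1 (0.130), and between effects that of Lcn2 (0.0618). The 5 arrays whose omission ended the call of Trf were replicates 2, 4 and 5 of Bleomycin + LNA-miR-199a-5p and replicates 2 and 4 of Bleomycin + LNA-control (0.20 to 0.26).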
